A study of Mus musculus with 15 samples.

Results

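The comparison described here set 4n-top hepatocytes against 4n-bottom hepatocytes, which are tetraploid liver cells parted by the height of their Hoechst DNA stain signal in flow cytometry. It took in 7 of the 15 libraries in the count table, 3 from 4n-top (mice 2, 3 and 4) and 4 from 4n-bottom (mice 1, 2, 3 and 4). A 4n-top library of mouse 1 was not analysed here. The genes were the 17488 of 55984 in the table that passed a filter on low counts, and each library was matched to its partner by the number of the mouse. All mice were WT male adults of the strain C57BL/6JJcl, 7 to 15 weeks old, untreated, and their hepatocytes were freed by collagenase, stained with Hoechst in the presence of reserpine, cleared of dead cells with TO-PRO-3 and sorted once. The remaining libraries came from 2n-whole hepatocytes (diploid) and 4n-whole hepatocytes (tetraploid, not split by signal height) of the same 4 mice.

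A tetraploid hepatocyte can hold its DNA in one nucleus or spread it over a pair of diploid nuclei, which form when a dividing cell skips cytokinesis. A single large nucleus gives a tall, narrow fluorescence pulse, so 4n-top is enriched in mononucleated and 4n-bottom in binucleated cells; both gates are mixtures, and a difference between gates is therefore not a difference between pure cell types. Liver lobules are zoned: hepatocytes around the portal vein make urea and glucose, hepatocytes around the central vein carry most cytochrome P450 enzymes and bile acid synthesis, and a thin layer that touches the central vein makes glutamine from ammonia. The comparison asked whether tetraploid hepatocytes with 1 nucleus and with 2 nuclei differ in expression.

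The sorted cells carried the markers of their label. Hepatocyte transcripts were abundant in every library, with Alb, the gene of serum albumin, at 48549 to 73188 CPM (counts scaled to a common library size) in 4n-top and 57184 to 72067 CPM in 4n-bottom. None of 27 tested genes of a hepatocyte identity list (liver transcription factors and secreted products) had an unadjusted p under 0.05, and all 27 had a 95% interval of the log2 fold change inside ±0.5. The summed level of 15 Kupffer cell and macrophage markers was 0.899 to 3.26 CPM in 4n-top and 1.08 to 4.63 CPM in 4n-bottom. For 15 stellate cell and fibroblast markers the sums were 2.34 to 4.90 CPM and 3.04 to 7.19 CPM, and for 20 endothelial markers 97.7 to 137 CPM and 81.9 to 139 CPM. The 2 groups overlapped on every one of these sums. Within mice 2, 3 and 4 the Kupffer cell and macrophage sum was lower in 4n-top each time (3.26 against 4.63 CPM, 0.899 against 1.08 CPM and 1.71 against 2.72 CPM). The stellate cell and endothelial sums went both ways over these mice. The endothelial sum was mostly Dpp4, with 94.7 ± 8.93 CPM in 3 libraries of 4n-top (SD) and 94.4 ± 19.8 CPM in 4 of 4n-bottom. Total counts were 25588972 to 41438193 in 4n-top and 31461234 to 40831810 in 4n-bottom. The 4n-bottom library of mouse 1 stood apart, with 23.6% of its counts on the mitochondrial genome and 55.3% in its top 100 genes, against 12.2% and 50.6% as the lowest values of that group. Over the 2 groups neither share differed beyond the spread between libraries (p = 0.286 and p = 0.20, two-sided exact permutation tests of 3 against 4 libraries, where 0.0286 is the smallest p possible). This test leaves out the pairing, and within mice 2, 3 and 4 the share of the top 100 genes was lower in 4n-top each time (49.0% against 50.7%, 50.6% against 50.8% and 48.5% against 50.6%).

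The promoters of Glul, Slc1a2 and Csad are shown because these 3 genes had the smallest p, with lower values of the first pair and higher values of Csad in 4n-top. Glul encodes glutamine synthetase, Slc1a2 encodes a glutamate transporter, and both are known from the layer of cells at the central vein. Csad encodes cysteine sulfinic acid decarboxylase, an enzyme of taurine synthesis. The sequences below run from 250 bases before to 50 bases after a transcript start in RefSeq (build GRCm38.p6), and capitals mark the letters CTTTGA on either strand, the core recognised by the TCF/LEF factors of the Wnt pathway. They lie at chr1:153899679-153899978 on the plus strand for Glul, at chr2:102706188-102706487 on the plus strand for Slc1a2, and at chr15:102205003-102205302 on the minus strand for the more upstream of 2 Csad starts.
Glul: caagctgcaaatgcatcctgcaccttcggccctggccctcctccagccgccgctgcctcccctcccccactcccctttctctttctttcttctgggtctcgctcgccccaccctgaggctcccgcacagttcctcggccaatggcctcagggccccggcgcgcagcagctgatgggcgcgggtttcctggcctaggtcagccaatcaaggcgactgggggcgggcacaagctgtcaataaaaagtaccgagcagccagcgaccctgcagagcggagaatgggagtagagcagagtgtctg
Slc1a2: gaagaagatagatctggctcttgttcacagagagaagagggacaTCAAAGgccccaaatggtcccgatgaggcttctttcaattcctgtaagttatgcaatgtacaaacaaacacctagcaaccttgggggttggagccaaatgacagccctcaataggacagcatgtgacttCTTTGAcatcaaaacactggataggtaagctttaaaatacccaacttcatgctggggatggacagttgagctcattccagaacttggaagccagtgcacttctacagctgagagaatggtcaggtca
Csad: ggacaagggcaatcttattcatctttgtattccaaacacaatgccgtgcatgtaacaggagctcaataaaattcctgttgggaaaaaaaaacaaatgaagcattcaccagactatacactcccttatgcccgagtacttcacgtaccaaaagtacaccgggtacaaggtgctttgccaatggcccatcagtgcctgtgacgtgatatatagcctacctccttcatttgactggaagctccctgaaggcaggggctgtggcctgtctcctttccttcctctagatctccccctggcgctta
The Slc1a2 window held the motif 2 times, beginning 206 and 77 bases before the start, once on each strand. The Glul window and both Csad windows held none. Among 32851 RefSeq windows of this length, 16% held the motif at least once, and a match or its absence in so short a window describes these letters only.

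Only 2 genes differed between the fractions at the thresholds of the test, an adjusted p under 0.05 and an absolute log2 fold change over 0.5, which was 0.0114% of the genes tested. Csad rose in 4n-top and Glul fell. The test was the quasi-likelihood test of edgeR with the mouse as a term and Benjamini-Hochberg adjustment over all 17488 genes, and positive fold changes mean higher in 4n-top throughout. In bulk RNA, a larger share of cells that express a gene and more RNA of that gene per cell cannot be told apart.

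Csad stood at 41.2, 137, 146 and 128 CPM in 4n-bottom of mice 1 to 4, and at 187, 257 and 206 CPM in 4n-top of mice 2, 3 and 4. All 3 4n-top libraries lay above all 4 4n-bottom libraries, and the lowest level belonged to mouse 1, whose 2n-whole and 4n-whole libraries were also the lowest of their groups at 35.7 and 89.5 CPM. Within mice 2, 3 and 4 the difference was 0.44, 0.81 and 0.69 on the log2 CPM scale. The fitted log2 fold change was 0.72 (SE 0.11, 95% interval 0.49 to 0.94, adjusted p = 0.0098, edgeR). The gene lies on chromosome 15 of GRCm39 from 102085432 to 102113498 on the minus strand, where Zfp740 overlaps it on the opposite strand.

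Glul stood at 85.1, 41.0, 141 and 211 CPM in 4n-bottom of mice 1 to 4, and at 26.1, 64.6 and 105 CPM in 4n-top of mice 2, 3 and 4. The groups overlapped, and mouse 2 was the lowest and mouse 4 the highest in each. Within each mouse 4n-top was the lower one, by log2 differences of -0.65, -1.12 and -1.003. The fitted log2 fold change was -0.90 (SE 0.16, 95% interval -1.22 to -0.57, adjusted p = 0.0499, edgeR). This value sat at the threshold: without the 4n-bottom library of mouse 1 the adjusted p was 0.0501 (edgeR) and Csad alone was called. The 4n-whole libraries held 111, 44.7, 82.1 and 176 CPM of Glul in mice 1 to 4.

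Slc1a2 came next by p and did not pass. It stood at 20.7, 11.42, 61.4 and 62.3 CPM in 4n-bottom and at 4.80, 33.0 and 26.4 CPM in 4n-top of mice 2, 3 and 4. Its within-mouse differences were -1.24, -0.90 and -1.24, and its fitted log2 fold change was -1.08 (SE 0.20, adjusted p = 0.0663, edgeR). Like Glul, Slc1a2 was lowest in mouse 2 within each fraction.

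**Figure D1:**
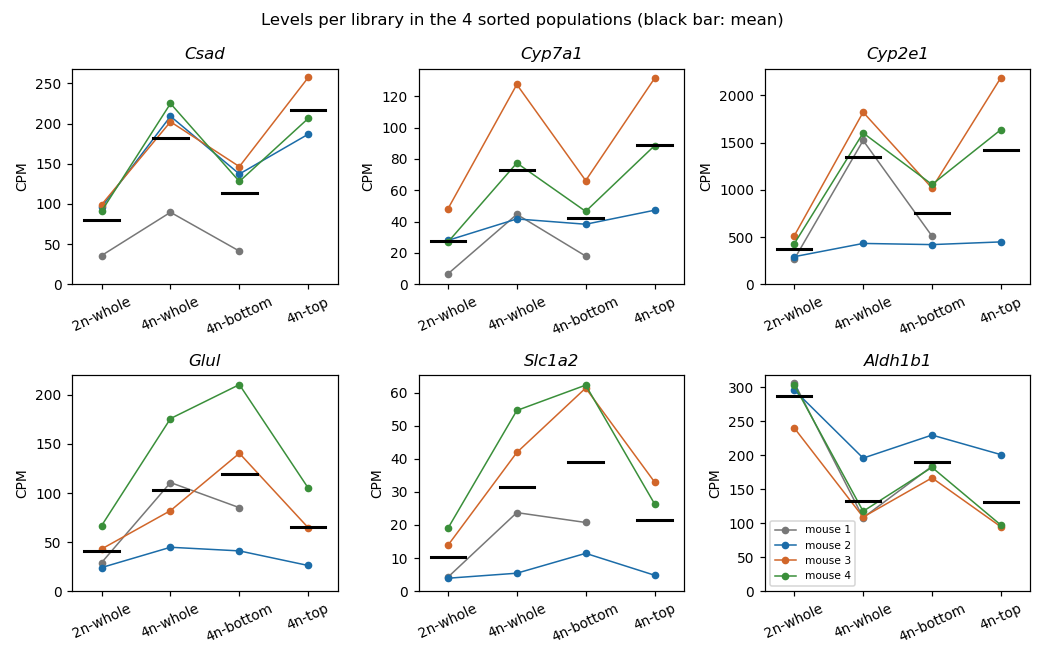
CPM of 6 genes in each library of the 4 sorted populations, with points joined by mouse and black bars at the group means; the 4n-top column has mice 2, 3 and 4 only. In every mouse with both libraries, Csad, Cyp7a1 and Cyp2e1 were higher in 4n-top than in 4n-bottom and Glul, Slc1a2 and Aldh1b1 were lower, and mouse 2 had nearly level lines for Cyp2e1. All 6 genes come from a rule that required the same sign in these mice.

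Many genes of a pericentral list, with P450 enzymes at their head, had higher values in 4n-top. The list was written with earlier results of these data known, so its counts are descriptions and not a test. Of 38 tested genes in this list, Csad alone passed the adjusted test, but 22 had an unadjusted p under 0.05 with higher values in 4n-top and 0 had one with lower values, where 1.19% of all tested genes had such a p with higher values. Glul, Slc1a2 and Slc13a3, of the layer at the central vein, had such a p with lower values. They were not in this list but in a separate one, described below. Values were higher in 4n-top in all 3 mice for 23 of the 38, against 11.5% of all tested genes, and lower in all 3 for 0. The median log2 fold change of the list was 0.28, and 0.00 over all tested genes. By mouse it was 0.11, 0.46 and 0.29 in mice 2, 3 and 4, so mouse 2 showed the least. Within the list the 13 cytochrome P450 genes and partners had a median of 0.60, the 16 genes of other pericentral metabolism 0.35, and the 9 genes of conjugation and transport 0.21.

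Cyp2e1, which oxidises ethanol and paracetamol, stood at 509.6, 419.6, 1019 and 1057 CPM in 4n-bottom and at 448, 2188 and 1637 CPM in 4n-top. Mice 3 and 4 gave the difference, with 1.10 and 0.63 on the log2 scale, and mouse 2 gave 0.10. Cyp1a2, which clears caffeine, stood at 179, 177, 276 and 348 CPM in 4n-bottom and at 193, 463 and 495 CPM in 4n-top, again with the smallest step in mouse 2. Cyp2c50, a member of the Cyp2c cluster of drug- and fatty acid-oxidising enzymes, stood at 201, 149, 212 and 357 CPM and at 194, 475 and 499 CPM. The group of 4n-top spread over a wider range than 4n-bottom for all 3 genes, with mouse 2 near the 4n-bottom values. Their fitted log2 fold changes were 0.72 (SE 0.20), 0.60 (SE 0.16) and 0.73 (SE 0.17), with adjusted p = 0.907, 0.907 and 0.468 (edgeR). Cyp2c29 had a log2 fold change of 0.81 (SE 0.24), Cyp2c54 of 0.65 (SE 0.20), Cyp2c67 of 0.53 (SE 0.15) and Cyp2c37 of 0.48 (SE 0.19). Cyp2c38 of the same cluster had -0.03 (SE 0.27). Genes of this cluster are close in sequence, and reads shared between them would make both the single values and a common direction less certain. This was not tested.

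Rgn, the gluconolactonase of vitamin C synthesis, stood at 162, 114, 157 and 204 CPM in 4n-bottom and at 158, 339 and 351 CPM in 4n-top. Its log2 fold change was 0.86 (SE 0.20, adjusted p = 0.396, edgeR). Aldh3a2, a fatty aldehyde dehydrogenase, had 0.67 (SE 0.23), Aldh1a1, a retinaldehyde dehydrogenase, 0.37 (SE 0.11), and Pon1, a secreted paraoxonase, 0.42 (SE 0.14). In all, 3 genes of the list had negative values, Cyp2c38, Fmo5 and Nr1i2, and none of these 3 had an unadjusted p under 0.05.

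Some enzymes of bile acid and taurine synthesis had higher values in 4n-top. Cyp7a1, the rate-limiting enzyme of bile acid synthesis, stood at 17.9, 38.3, 66.1 and 46.5 CPM in 4n-bottom and at 47.2, 131 and 88.4 CPM in 4n-top, with a log2 fold change of 0.76 (SE 0.20, adjusted p = 0.826, edgeR). Its within-mouse differences were 0.30, 0.99 and 0.93. Of 27 tested genes of taurine and bile acid synthesis, 6 had an unadjusted p under 0.05 with higher values in 4n-top (1.19% of all tested genes) and 0 with lower values. They were Csad, Cyp7a1, the sterol hydroxylases Cyp27a1 (0.28, SE 0.09) and Cyp8b1 (0.30, SE 0.10), the ketosteroid reductase Akr1c6 (0.44, SE 0.16) and the cysteine dioxygenase Cdo1 (0.22, SE 0.09). Of these 6, 4, without Cyp8b1 and Cdo1, are also in the pericentral list. The median of the list was 0.06, and 0 of the 10 genes of bile acid control and transport had an unadjusted p under 0.05.

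On the 4n-bottom side stood some genes of the portal side of the lobule, with smaller values. They come from a list that was likewise written with earlier results of these data known. Of 41 tested genes in a periportal list, 0 passed the adjusted test, 9 had an unadjusted p under 0.05 with lower values in 4n-top, and 0 had one with higher values; 1.6% of all tested genes had such a p on the 4n-bottom side. Values were lower in 4n-top in all 3 mice for 14 of the 41, against 11.5% of all tested genes, and higher in all 3 for 1. The median log2 fold change was -0.12, or -0.02, -0.09 and -0.20 in mice 2, 3 and 4. The values of single genes were small: 30 of the 40 well-expressed members had a 95% interval inside ±0.5.

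Aldh1b1, a mitochondrial aldehyde dehydrogenase, stood at 184, 229, 166 and 182 CPM in 4n-bottom and at 201, 94.6 and 97.1 CPM in 4n-top. Mice 3 and 4 gave differences of -0.82 and -0.91 and mouse 2 gave -0.19. Sult5a1, a sulfotransferase, stood at 19.7, 16.3, 17.0 and 15.37 CPM and at 13.4, 7.93 and 7.60 CPM, and the groups did not overlap. Cdh1, the gene of E-cadherin, stood at 294, 264, 138 and 234 CPM and at 234, 100.5 and 144 CPM, with a log2 fold change of -0.42 (SE 0.11). Ctsc, a lysosomal cysteine protease, stood at 98.7, 79.7, 66.3 and 109 CPM and at 65.0, 55.3 and 54.6 CPM, also without overlap, with a log2 fold change of -0.52, or -0.31 without mouse 4. Ass1, an enzyme of the urea cycle, had a log2 fold change of -0.06 (95% interval -0.23 to 0.11), and Cyp2f2, a P450 of the portal side, had -0.20 (95% interval -0.44 to 0.05).

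**Figure D2:**
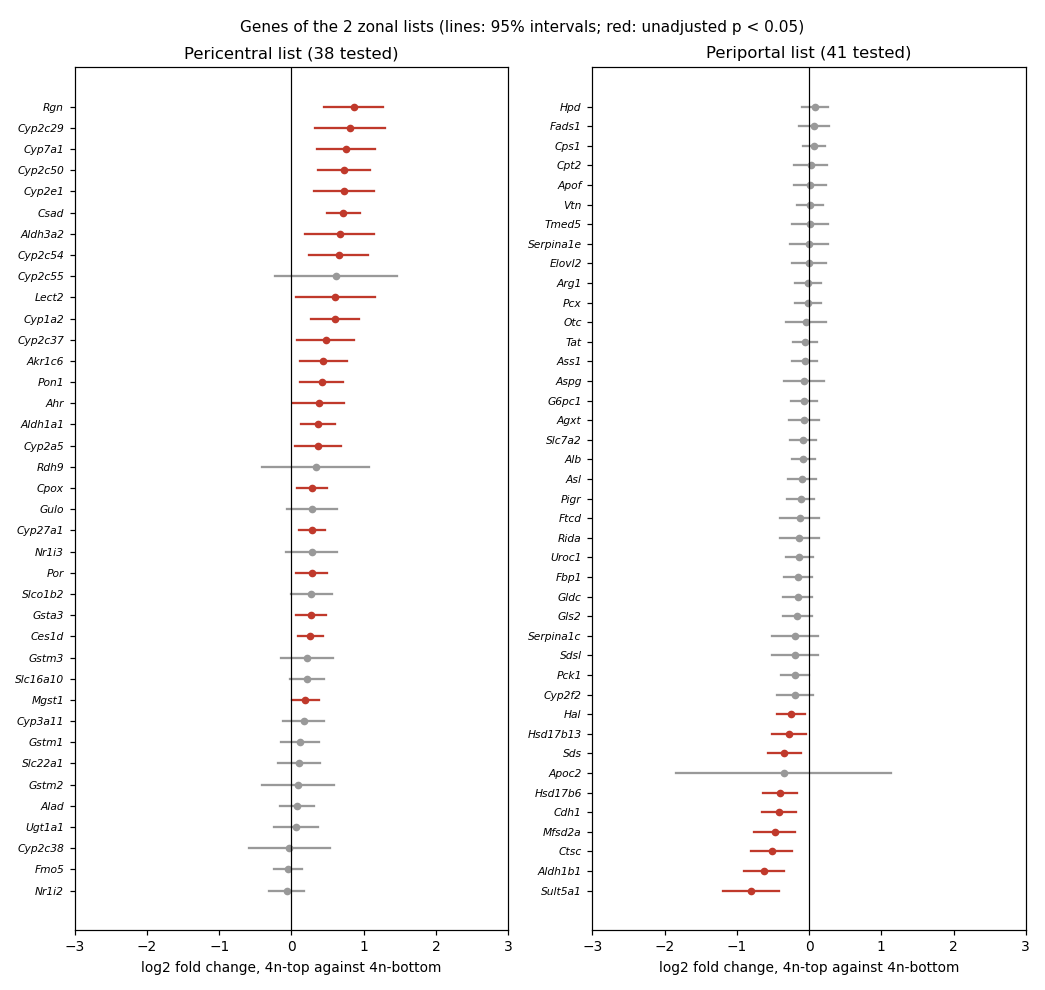
Fitted log2 fold change of every tested gene in the pericentral list (38 genes, left) and the periportal list (41 genes, right), with lines for 95% intervals and red for an unadjusted p under 0.05. Red genes lie only to the right of 0 in the pericentral list (22) and only to its left in the periportal list (9).

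Genes of the layer at the central vein itself stood on both sides. Of 20 tested genes of that layer and of Wnt signalling, 4 had an unadjusted p under 0.05 with higher values in 4n-top and 3 with lower values, beside 1.19% and 1.6% of all tested genes, and the median was -0.01. The lower ones were Glul, Slc1a2 and the dicarboxylate transporter gene Slc13a3, whose mean was 2.33 ± 1.74 CPM in 3 libraries of 4n-top (SD) and 3.62 ± 2.08 CPM in 4 of 4n-bottom, with a log2 fold change of -1.03 (SE 0.37). The higher ones were the transcription factor Tbx3 (0.66, SE 0.22), the biliverdin reductase Blvrb (0.47, SE 0.14), the fatty acid hydroxylase Cyp4a14 (0.43, SE 0.15) and the ubiquitin ligase Rnf43 (0.39, SE 0.15). Mouse 3 carried the value of Cyp4a14, with differences of 0.02, 0.94 and 0.11 in mice 2, 3 and 4, and a log2 fold change of 0.22 without mouse 3, where that of Blvrb was 0.28. Tbx3 and Rnf43 are targets of Wnt signalling. Znrf3, a ubiquitin ligase of Wnt feedback at a level like that of Tbx3, had 0.03 (SE 0.17). The other Wnt genes were at low levels with wide errors: Axin2 had a log2 fold change of -0.04 (SE 0.33), Lgr5 of -0.19 (SE 0.66), Notum of 0.19 (SE 0.25), Tcf7 of -0.21 (SE 0.48), Nkd1 of -0.73 (SE 1.08) and Tnfrsf19 of -0.77 (SE 0.87). Oat, an ornithine aminotransferase of the same layer as Glul, had means of 173 ± 91.8 CPM in 3 libraries of 4n-top (SD) and 156 ± 75.4 CPM in 4 of 4n-bottom, with a log2 fold change of 0.02 (SE 0.20).

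Midlobular genes, of the zone between both veins, were few. Of 7 tested, 2 had an unadjusted p under 0.05 with higher values in 4n-top, Igfbp2 and Cyp8b1, beside 1.19% of all tested genes. Cyp8b1 is also counted in the bile acid list above. Igfbp2, a secreted carrier of insulin-like growth factors, stood at 382, 273, 282 and 316 CPM in 4n-bottom and at 357, 359.6 and 406 CPM in 4n-top. Its within-mouse differences of 0.39, 0.35 and 0.36 were nearly equal, with a log2 fold change of 0.34 (SE 0.09, adjusted p = 0.907, edgeR). Hamp, the gene of the iron hormone hepcidin, had 0.25 (95% interval -0.05 to 0.55). Mup3, a major urinary protein gene and the most abundant of the 7, had -0.14 (95% interval -0.39 to 0.10).

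**Figure D3:**
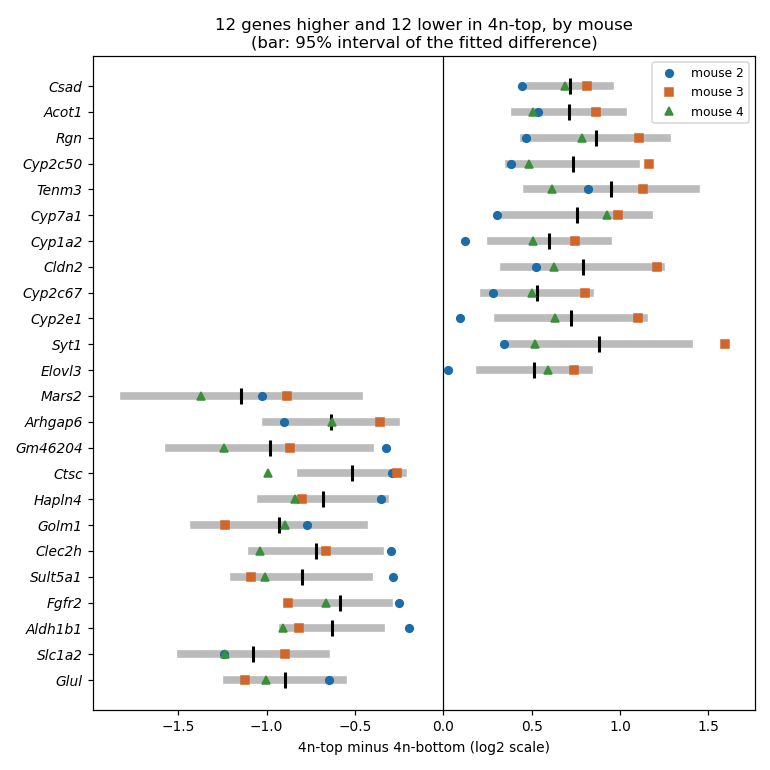
Difference between 4n-top and 4n-bottom (log2 scale) in mice 2, 3 and 4 for the 12 genes with the smallest p in each direction, with black ticks for the fitted log2 fold change and grey bars for its 95% interval. Genes were chosen for the same sign in all 3 mice, and mouse 2 had the smallest difference in 10 of the 12 genes higher in 4n-top and 8 of the 12 lower.

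By a fixed rule, the 12 genes with the smallest p in each direction were taken among those with an absolute log2 fold change over 0.5, a mean log2 CPM of 1 or more and the same sign in all 3 mice. The rule used this contrast, so their values are a description. The 12 on the 4n-top side were Csad, Acot1, Rgn, Cyp2c50, Tenm3, Cyp7a1, Cyp1a2, Cldn2, Cyp2c67, Cyp2e1, Syt1 and Elovl3. Acot1, an acyl-CoA thioesterase, stood at 6.66, 11.3, 16.8 and 29.2 CPM in 4n-bottom and at 16.37, 30.6 and 41.5 CPM in 4n-top; it is a near copy of Acot2, which had a log2 fold change of 0.74 (SE 0.28), and the split of reads between them is uncertain. Tenm3, a teneurin cell adhesion protein, stood at 4.57, 6.05, 11.7 and 13.5 CPM and at 10.7, 25.8 and 20.7 CPM. Cldn2, a claudin of leaky tight junctions, stood at 19.1, 15.5, 7.98 and 18.4 CPM and at 22.2, 18.5 and 28.4 CPM. Their fitted log2 fold changes were 0.71, 0.95 and 0.79, in that order.

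Syt1, a calcium sensor of vesicle release, stood at 4.12, 5.09, 2.68 and 5.83 CPM in 4n-bottom and at 6.46, 8.21 and 8.36 CPM in 4n-top, without overlap, and most of its difference came from mouse 3 (1.59, against 0.34 and 0.52 in mice 2 and 4). Its log2 fold change was 0.88, and 0.49 without mouse 3. Elovl3, a fatty acid elongase, stood at 175, 223, 157 and 138 CPM and at 228, 262 and 209 CPM, with 0.03 in mouse 2. The gene Pitx3 overlaps Elovl3 on the opposite strand and had a log2 fold change of 0.63. How strand was used in counting is not given in the sources used here, so the reads of this pair may not be cleanly split.

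The 12 on the 4n-bottom side were Glul, Slc1a2, Aldh1b1, Fgfr2, Sult5a1, Clec2h, Golm1, Hapln4, Ctsc, Gm46204, Arhgap6 and Mars2. Fgfr2, a fibroblast growth factor receptor, stood at 100.97, 82.1, 50.5 and 76.6 CPM in 4n-bottom and at 69.0, 27.4 and 48.3 CPM in 4n-top, and had a log2 fold change of -0.58. In GENCODE M39 its annotated span overlaps 47 genes on the same strand and 52 on the other, so its count depends on how overlapping genes were treated. Its relative Fgfr1, which no rule picked and which was chosen after its value was seen, had -0.66. Golm1, a Golgi membrane protein, stood at 5.32, 11.5, 5.24 and 6.67 CPM and at 6.69, 2.19 and 3.55 CPM. Hapln4, a hyaluronan link protein, stood at 18.0, 14.5, 12.8 and 13.03 CPM and at 11.3, 7.35 and 7.25 CPM, and the groups did not overlap.

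Clec2h, a C-type lectin, stood at 24.7, 11.5, 6.54 and 18.0 CPM in 4n-bottom and at 9.37, 4.10 and 8.75 CPM in 4n-top. Arhgap6, a GTPase-activating protein, stood at 12.9, 12.1, 11.7 and 11.3 CPM and at 6.44, 9.07 and 7.25 CPM; its 4n-bottom values were the most even of the 12. Mars2, the mitochondrial methionyl-tRNA synthetase, stood at 6.86, 7.10, 5.24 and 3.52 CPM and at 3.46, 2.81 and 1.32 CPM. Gm46204, whose function is not given in the annotation, stood at 11.1, 3.98, 6.67 and 4.12 CPM and at 3.16, 3.63 and 1.71 CPM. Over the 24 genes, all 3 4n-top libraries lay beyond all 4 4n-bottom libraries for 2 on the 4n-top side and 6 on the 4n-bottom side. The rule that chose these genes favours such gaps, and the share of all tested genes with one was not counted.

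The 4n-whole libraries took part in the fit that chose these 24 genes, through the filter, the mouse terms and the error. On the mean of mice 2, 3 and 4 they lay between the fractions for 12 of 12 genes on the 4n-top side. They lay nearer to 4n-top for all 12, at a median of 0.77 of the way from 4n-bottom to 4n-top. For the 12 on the 4n-bottom side, 9 lay between and 3, namely Ctsc, Gm46204 and Arhgap6, lay beyond 4n-top, with a median of 0.70. Csad in 4n-whole was 0.97 of the way to 4n-top and Glul 0.33. Among all genes with an unadjusted p under 0.05 and the same sign in the 3 mice, the medians were 0.59 for 174 genes on the 4n-top side and 0.49 for 216 on the 4n-bottom side. Genes chosen for a gap between 2 groups tend to leave another group inside it, so these positions are descriptions only.

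**Figure D4:**
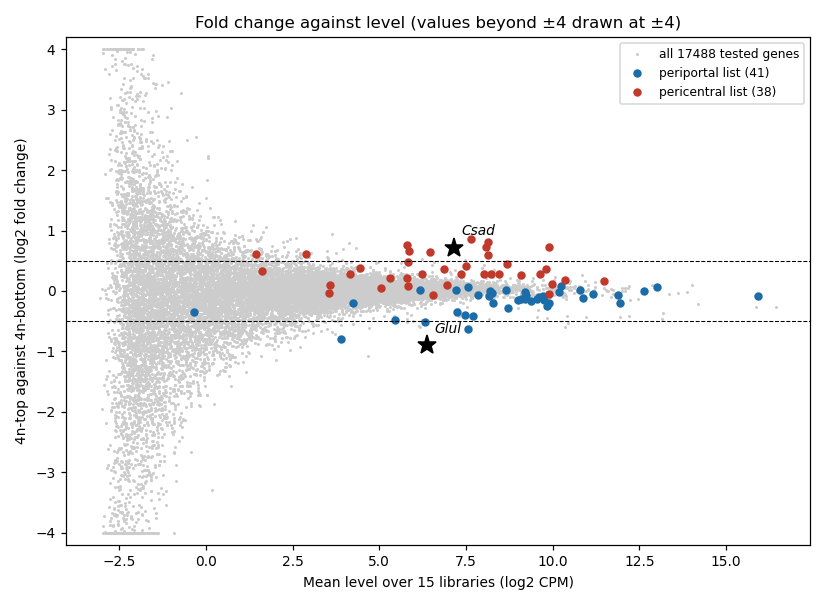
Fitted log2 fold change of 4n-top against 4n-bottom (y) over the mean level in log2 CPM (x) for all 17488 tested genes in grey, with the pericentral list in red, the periportal list in blue, stars for Csad and Glul and dashed lines at ±0.5. Large fold changes lie among weakly expressed genes, and above a log2 CPM of 3 few genes leave the dashed lines.

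Most well-expressed genes differed little. Of 7457 genes with a mean log2 CPM of 3 or more, 6026 (80.8%) had a 95% interval of the log2 fold change inside ±0.5, and their median absolute log2 fold change was 0.08. Past 0.5 in either direction were 49 genes, 22 on the 4n-top side and 27 on the 4n-bottom side. Of these 49, 40 had the same sign in the 3 mice, 9 were in the pericentral list and 3 in the periportal list. Fabp5, a fatty acid-binding protein, had 0.70 (SE 0.22) and Aqp4, a water channel, -0.51 (SE 0.22); both were chosen after their values were seen. Across all tested genes the within-mouse differences of one mouse hardly tracked those of another, with Pearson correlations of 0.0058, -0.0092 and 0.0032 between mice 2 and 3, 2 and 4, and 3 and 4. Among the 7457 genes with a mean log2 CPM of 3 or more they were -0.0038, 0.084 and -0.12. Across the 79 genes of the pericentral and periportal lists they were 0.35, 0.46 and 0.62. Those lists, chosen with earlier results known, join a set with a higher and a set with a lower median, which can raise such correlations. These correlations are across genes of paired libraries, and genes are not independent replicates.

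Drug metabolism genes repeated the pericentral values, since the lists share members. Of 85 tested phase I genes (P450s, dehydrogenases, esterases and flavin monooxygenases) 19 had an unadjusted p under 0.05 with higher values in 4n-top and 1, Aldh1b1, with lower values, and the median was 0.11. The shares over all tested genes, 1.19% and 1.6%, stand beside this count and those of the lists that follow. The carboxylesterases Ces1d and Ces1g had 0.26 (SE 0.09) and 0.31 (SE 0.10), and Por, the electron donor of the P450s, 0.28 (SE 0.11). Of 54 phase II genes 3 had higher values at this p, Gsta3, Sult2a8 and Mgst1, and 1 lower. Of 16 heme genes, 4 had higher values at this p, among them Blvrb, Cpox and Blvra, and the median of that list was 0.08. In fatty acid oxidation 42 of 47 genes had positive values, but with a median of 0.09, where the median over all tested genes was 0.001. Genes of a list are not independent, so such counts of signs are descriptions. At this p, 3 genes of this list were on the 4n-top side, Cyp4a14, Ehhadh and Acaa1b. Ppargc1a, the coactivator of mitochondrial and fasting genes, was the 1 on the 4n-bottom side, with -0.36 (SE 0.14).

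Well-expressed genes of the nuclear envelope were nearly level, and no gene of cytokinesis and ploidy control had an unadjusted p under 0.05. Of 48 tested nuclear envelope and pore genes 0 had an unadjusted p under 0.05 in either direction, with a median log2 fold change of 0.03, and 32 of the 37 well-expressed ones had a 95% interval inside ±0.5. Of 45 tested genes of cytokinesis and ploidy control (cytokinesis, E2F, Hippo and PIDDosome genes) 0 had such a p, with a median of 0.05. Only 16 of those 45 were well expressed, and the rest had low counts and wide intervals. The S phase list had 1 of 25, Mcm5, a helicase subunit, with 0.99 (SE 0.46) and differences of -0.34, 2.66 and 1.22. Of 28 tested replication-dependent histone genes 1 had such a p, H2bc9, with means of 0.0386 ± 0.0355 CPM in 3 libraries of 4n-top (SD) and 0.429 ± 0.264 CPM in 4 of 4n-bottom.

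The few matrix genes with an unadjusted p under 0.05 were all lower in 4n-top. Their share was above that of all tested genes, but some had counts near 0. Of 55 tested integrin and extracellular matrix genes 0 passed the adjusted test, 4 had an unadjusted p under 0.05 with lower values in 4n-top, among them Itga6, Col4a1 and Fbn1, and 0 had one with higher values, beside 1.6% and 1.19% of all tested genes. The median was -0.15. Itga6, the laminin-binding integrin alpha 6, stood at 3.14, 4.32, 4.43 and 6.09 CPM in 4n-bottom and at 2.77, 3.75 and 2.23 CPM in 4n-top, with a log2 fold change of -0.77, or -0.47 without mouse 4. Col4a1, a collagen of basement membranes, stood at 22.03, 15.5, 15.43 and 9.88 CPM and at 12.3, 13.1 and 6.48 CPM, so the groups overlapped for both. Fbn1, a fibrillin of microfibrils, had 0 counts in all 3 4n-top libraries and under 0.5 CPM in 4n-bottom. Of the 9 tested Kupffer cell and macrophage markers 9 had negative log2 fold changes, none with an unadjusted p under 0.05. The summed levels given above overlapped between the groups but were lower in 4n-top within each of mice 2, 3 and 4. Of 7 tested stellate cell and fibroblast markers 5 had negative values, among them Col1a1 (-3.93, SE 2.26) and Col3a1 (-3.14, SE 2.13), and 0 had such a p. The bile duct marker Krt19 and the endothelial marker Bmp2 had an unadjusted p under 0.05 in edgeR with lower values in 4n-top. Krt19 had no count in the 4n-top libraries and 0 to 0.457 CPM in 4n-bottom, and Bmp2 had 0 to 0.139 CPM and 0.0525 to 1.06 CPM. The part of other cell types in the matrix values was not tested.

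Transcripts of the mitochondrial genome differed by mouse more than by gate. All 13 tested mRNAs had negative log2 fold changes, 5 with an unadjusted p under 0.05, and the median was -0.46, against 0.001 over all tested genes. By mouse the medians were -0.95, 0.19 and -0.27 in mice 2, 3 and 4, and 1 of 13, mt-Co3, had the same sign in the 3 mice. For mt-Nd4, a subunit of respiratory complex I, the 4n-bottom levels were 2447 CPM in mouse 1 and 1104 CPM in mouse 2, but 649.6 and 658 CPM in mice 3 and 4, near the 568, 758 and 571 CPM of 4n-top. The 82 tested respiratory chain subunits encoded in the nucleus had 0 genes at this p and a median of 0.04. Reads of mt-Co2 and mt-Co3, at 1.99 to 14.1 CPM over both, may be shared with near-identical nuclear copies, and their values are uncertain.

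**Figure D5:**
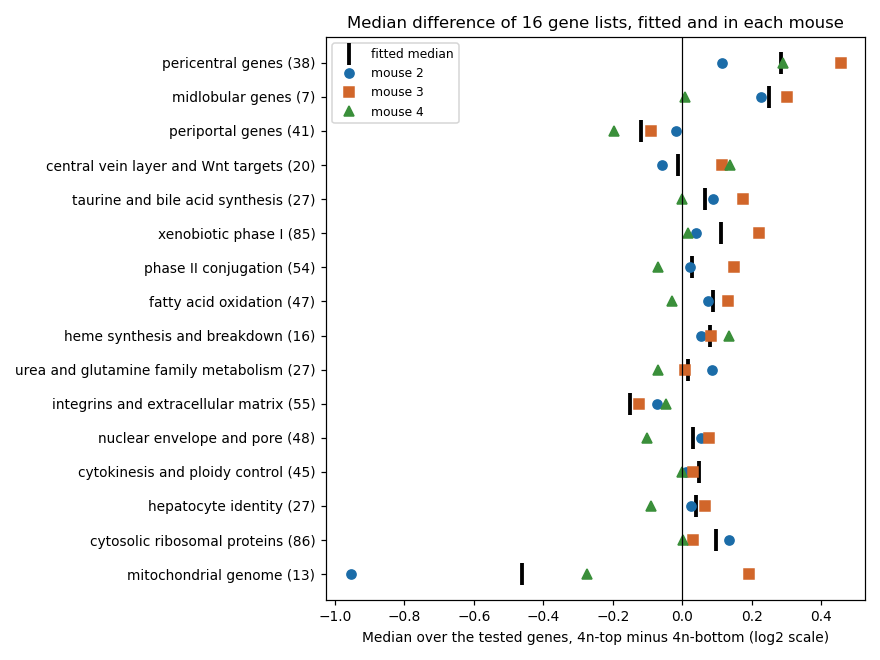
Median difference between 4n-top and 4n-bottom (log2 scale) over the tested genes of 16 lists, as fitted (black ticks) and in mice 2, 3 and 4 (coloured points), with the number of genes in brackets. The pericentral list is the furthest right, with all 3 mice above 0, and the mitochondrial genome is furthest left with the mice on both sides of 0.

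Housekeeping machinery was nearly level. Among 86 cytosolic ribosomal protein genes 0 had an unadjusted p under 0.05 and 73 had positive values. The median over all tested genes was 0.001. That of this list was 0.10, while by mouse it was 0.14, 0.03 and 0.00. Of 38 proteasome genes and 38 translation initiation genes 0 had such a p, with medians of 0.04 each. Of 24 genes of branched chain amino acid breakdown 1 had such a p, the dehydrogenase subunit Bckdha (0.32, SE 0.13), and of 27 cholesterol synthesis genes 2 had one, among them Fdps (0.32, SE 0.11), a prenyl diphosphate synthase. In the stress and dissociation list, Hspa1b (0.54, SE 0.23) and Mt1 (0.28, SE 0.13) were on the 4n-top side and Klf6 (-0.56, SE 0.18) on the 4n-bottom side. Mup20, the male urinary pheromone carrier darcin, stood at 1563, 1382, 1219.6 and 1383 CPM in 4n-bottom and at 1396, 906 and 874 CPM in 4n-top, with 0.01 in mouse 2 and -0.43 and -0.66 in mice 3 and 4.

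The number of genes past the thresholds moved with the libraries and mice in the fit. On the 7 libraries of these fractions alone, where 15015 genes passed the filter, edgeR called 15, 11 higher in 4n-top (Csad, Acot1, Aldh3a2, Cldn2, Cyp2c29, Cyp2c50, Cyp2c67, Cyp2e1, Cyp7a1, Rgn and Tenm3) and 4 lower (Glul, Slc1a2, Aldh1b1 and Fgfr2). Without mouse 2 the count was 29, and without mouse 3 or mouse 4 it was 0, with adjusted p = 0.0715 and 0.118 for Csad (edgeR). The count of pericentral genes at an unadjusted p under 0.05 was 19, 26, 15 and 18 without mouse 1, 2, 3 or 4, and 0 on the 4n-bottom side each time. Without the 4n-bottom library of mouse 1 alone it was 18, and without the mouse term in the fit it fell to 9. The count of periportal genes at this p on the 4n-bottom side was 9, 14, 9 and 6 without mouse 1, 2, 3 or 4. It was 4 without the mouse term.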

How the data were processed

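Libraries were made from sorted hepatocytes with the SMART-Seq Stranded Kit. Reads were mapped by the authors to GRCm39 using STAR 2.7.11a and counted per gene with featureCounts of the Subread package, and the deposited values are raw counts per gene symbol, not normalised. The annotation, the strand setting and the treatment of read pairs are not given in the sources used here. Of values from 1 to 10, 74.2% to 81.4% per library were even numbers. Counting both mates of a pair would give such values, and whether this was done was not tested.

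Libraries were grouped by the labels, and columns by their names. Genes were kept with edgeR's filterByExpr (minimum count 10, minimum total 15) over 4 populations, scaled by TMM, and tested with edgeR 4.0.16 in R 4.3.3 by the quasi-likelihood test over all 15 libraries, with population and mouse as terms; 4n-top was contrasted with 4n-bottom, with Benjamini-Hochberg adjustment. Standard errors come from the F statistic and intervals are 95%. Mouse numbers name the same animal across populations, and between 4n-top and 4n-bottom, the residuals of mice 2, 3 and 4 correlated at 0.203, 0.206 and 0.148 across genes. Within-mouse differences are of log2 CPM with a prior count of 2. Spreads are between mice, as each library came from 1 animal.

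Named genes were both genes past the thresholds, the 12 of smallest p in each direction by the rule in the text, the landmarks Cyp2e1, Cyp1a2, Cyp2f2, Ass1, Alb and Hamp, and up to 4 genes of smallest p in each list; other list members named have an unadjusted p under 0.05, are marker or family members, or are marked in the text. The comparison and the gene lists were chosen with earlier results of these data known, and lists are described by counts and medians only. Alternatives were DESeq2 1.42.0 with the mouse in the model, ComBat-seq (sva 3.50.0) followed by DESeq2, DESeq2 size factors in edgeR, no filter, no mouse term, the 7 libraries alone, no fold limit and each mouse left out. The scripts were tested on simulated data. Gene positions are from GENCODE M39, in which all 28 genes picked by threshold, rank or landmark were found. A few list members counted in the text are not reported here by name.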

Additional observations from a re-analysis of the deposited data

Results flagged for a closer look

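In groups of 4 libraries, the library at one end was compared with its nearest neighbour, and a value stood apart where that gap, as a share of the group's range, was above the 95% critical value of Dixon's test. Of 206 groups looked at, 16 met this limit, and chance gives about 1 in 20. No cause of any of them was tested.

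In 4n-bottom, mouse 1 held 55.31% of its counts in the top 100 genes, against 50.58% to 50.79% in the other libraries, and it had the highest mt-Co3, at 7.602 CPM against 5.049 to 5.302 CPM, and the highest Nr1d1, a repressor of the circadian clock, at 73.33 CPM against 19.6 to 27.13 CPM. Per1, another clock gene, was at 70.09 CPM in mouse 3 and at 5.254 to 11.01 CPM in the other mice, and 4n-top of mouse 3 had 53.5 CPM of it against 3.99 and 10.3 CPM in mice 2 and 4. Cyp4a14, a fatty acid hydroxylase, was at 601.7 CPM in mouse 4 and at 62.27 to 112.1 CPM in the others, and 4n-top of mouse 4 had 648 CPM against 114 and 194 CPM in mice 2 and 3. Fdps, of cholesterol synthesis, was at 152.7 CPM in mouse 2 and at 58.55 to 70.51 CPM in the others, and in 4n-top it was again highest in mouse 2, at 164 CPM against 81.2 and 70.5 CPM. For Per1, Cyp4a14 and Fdps the mouse that stood apart in 4n-bottom was thus also the highest in 4n-top. Sdhd, a subunit of respiratory complex II, was highest in mouse 4 at 112.1 CPM, Mthfd2l, a folate enzyme, highest in mouse 4 at 1.313 CPM, and Racgap1, a cytokinesis gene, was at 0.04798 CPM in mouse 2 with no count in the others.

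In the undivided populations, Csad was lowest in mouse 1, at 35.72 CPM in 2n-whole (others 91.06 to 99.08 CPM) and 89.54 CPM in 4n-whole (others 202.2 to 225 CPM). Cyp2c50 was lowest in 4n-whole of mouse 2, at 140.7 CPM against 405.2 to 455.7 CPM. Aldh1b1 and Golm1 were highest in 4n-whole of mouse 2, at 195.6 and 10.74 CPM. Aldh1b1 and Rgn were lowest in 2n-whole of mouse 3, at 239.9 and 73.1 CPM.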

How the results depend on the processing

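Against 2 genes past the thresholds, DESeq2 with the replicate block called 49 (40 with absolute log2 fold changes over 10), ComBat-seq followed by DESeq2 called 17, edgeR with no filter on low counts called 25 and edgeR on the 7 libraries alone called 15. Without the replicate block edgeR called 0 genes, with 96 higher in 4n-top and 239 lower at an unadjusted p under 0.05, where Csad had a log2 fold change of 0.94 and Glul -0.87 (adjusted p = 1 for both, edgeR). DESeq2 size factors, no fold limit and removal of the mitochondrial genome gave 2. Leaving out 1 mouse at a time gave 0 to 29 genes. The log2 fold change of Csad then ranged from 0.64 to 0.84 and of Glul from -0.96 to -0.82, with the adjusted p of Glul at 0.0715 without mouse 3 and 0.451 without mouse 4 (edgeR). Another 2 settings were chosen after seeing the data: without the 4n-bottom library of mouse 1 the count was 1, and with all counts halved it was 1, with an adjusted p of 0.0621 for Glul (edgeR). All 24 genes of smallest p kept their sign in 13 of 13 alternatives. They were chosen for the same sign in all 3 mice, and the alternatives reuse these libraries, so a kept sign was favoured beforehand. The pericentral median ranged from 0.25 to 0.43 over all alternatives. The cause of these shifts in count was not tested. One missing 4n-top library and few mice limit every call, and the values of weakly expressed genes rest on few counts.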
